A study of Homo sapiens with 13 samples.

Results

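The genes described here are 10 components of epithelial cell junctions: OCLN, CLDN1 and TJP1 of tight junctions, CDH1 and CDH3 of adherens junctions, and DSG2, DSG3, DSC2, DSC3 and PKP2 of desmosomes. They were chosen by gene symbol, with earlier results of these data known. Each was represented by its brightest probe set, the group of array probes that reports on its transcript. They are 10 of 11963 genes with such a probe set, and all 10 were among the 7733 genes kept after dim genes had been removed. The lowest value of any member, 5.26 for OCLN, was above the filter's limit of 4.68. Expression is given throughout as log2 of the array signal plus 6, so that a difference of 1 is a doubling for a bright gene and somewhat more for a dim one.

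RNA came from MCF10A, a spontaneously immortalized line of non-tumour human mammary epithelial cells, after 24 h without serum. The cells were then stimulated with EGF, epidermal growth factor, or with the mixture that the submitters called serum, made of heat-inactivated horse serum, insulin, hydrocortisone and cholera toxin. For each stimulus there was 1 array at 20, 40, 60, 120, 240 and 480 min, and 1 array of unstimulated cells served both time courses. The labels give this composition for the growth medium and do not say whether the serum stimulus held the whole mixture, nor the doses used for stimulation. Before the deprivation every culture had been grown with the mixture and EGF together. No array had a replicate, so times were grouped as late (120, 240 and 480 min) and early (20, 40 and 60 min), with 3 arrays in each phase of each stimulus. A p-value here is set by the spread between arrays of different times, since no spread between cultures was measured. The array counted as EGF at 20 min was given that time in its title and 40 min in its description.

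Tight junctions seal the space between neighbouring epithelial cells: occludin (OCLN) and claudin-1 (CLDN1) span the membrane, and ZO-1 (TJP1) binds them to the actin cytoskeleton from inside. Adherens junctions hold cells together through classical cadherins, here E-cadherin (CDH1) and P-cadherin (CDH3), which is typical of basal mammary cells. Desmosomes anchor keratin filaments; the desmogleins DSG2 and DSG3 and the desmocollins DSC2 and DSC3 are their adhesive cadherins, and plakophilin-2 (PKP2) is a plaque protein that links these to desmoplakin. EGF receptor signalling and the mixture's hormones are known to act on junction assembly in epithelial cultures.

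In the RefSeq annotation of GRCh38.p14, 6 of the 10 genes lie in clusters of cadherin genes. CDH3 (chr16:68645310-68733771) and CDH1 (chr16:68737292-68835537) are neighbours 3.52 kb apart. The 4 desmosomal cadherins lie within 559.64 kb of chromosome 18, in the order DSC3 (chr18:30989365-31042742), DSC2 (chr18:31058840-31102421), DSG3 (chr18:31447741-31478702) and DSG2 (chr18:31498177-31549008). OCLN lies at chr5:69492547-69558104, CLDN1 at chr3:190305707-190322446, TJP1 at chr15:29699367-29969049 and PKP2 at chr12:32790755-32896777. The 250 bases before the annotated gene start were read from RefSeq (GRCh38.p14) for 7 members; CDH1, CDH3 and PKP2 are named only. The windows printed here are those of OCLN and DSG3, which differed most between the stimuli, of DSG2, the neighbour of DSG3 whose late difference was small, and of CLDN1, the tight junction gene with the other large difference. They are written 5′ to 3′ along the gene, OCLN from chr5:69492297-69492546 on the plus strand, CLDN1 from chr3:190322447-190322696 on the minus strand, DSG3 from chr18:31447491-31447740 and DSG2 from chr18:31497927-31498176, both on the plus strand. Capitals mark matches on either strand to CAGGTG (an E-box to which SNAI and ZEB repressors bind), TGACG (the core of the cAMP response element), AGAACA (the core of the glucocorticoid response element) or GGGCGG (a GC box); no matches overlapped.
OCLN: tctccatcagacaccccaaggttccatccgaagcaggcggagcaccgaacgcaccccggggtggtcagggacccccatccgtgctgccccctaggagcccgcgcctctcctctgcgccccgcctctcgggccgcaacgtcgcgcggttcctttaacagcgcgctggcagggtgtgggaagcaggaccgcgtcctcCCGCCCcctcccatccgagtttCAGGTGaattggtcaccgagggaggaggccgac
CLDN1: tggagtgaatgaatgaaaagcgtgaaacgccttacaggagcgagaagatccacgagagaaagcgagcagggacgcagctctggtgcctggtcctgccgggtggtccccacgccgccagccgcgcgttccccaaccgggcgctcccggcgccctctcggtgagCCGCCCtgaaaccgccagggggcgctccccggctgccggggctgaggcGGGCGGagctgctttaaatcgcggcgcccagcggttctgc
DSG3: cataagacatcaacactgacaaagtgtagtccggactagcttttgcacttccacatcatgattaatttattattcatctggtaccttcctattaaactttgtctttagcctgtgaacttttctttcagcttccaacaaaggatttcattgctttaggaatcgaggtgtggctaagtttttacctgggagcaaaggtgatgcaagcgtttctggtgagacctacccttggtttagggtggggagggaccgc
DSG2: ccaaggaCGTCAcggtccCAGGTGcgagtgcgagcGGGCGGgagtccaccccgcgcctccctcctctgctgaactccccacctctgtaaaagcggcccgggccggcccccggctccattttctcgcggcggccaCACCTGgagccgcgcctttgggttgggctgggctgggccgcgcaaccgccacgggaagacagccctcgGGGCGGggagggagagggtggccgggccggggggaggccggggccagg

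OCLN held an E-box match 33 bases before its start and a GC box on the other strand at 55. CLDN1 held 2 GC boxes, at 40 and 88 bases. DSG2 held E-box matches at 116 and 232 bases, a cAMP element core at 243 and GC boxes at 48 and 215, and its window was 75.2% G and C. DSG3, 19.47 kb from it, held no match to any of the 4 motifs in a window of 42.8% G and C, against a median of 58.0% over 35116 promoter windows of the same length. Among the 7 members with a window at the gene start, E-box matches occurred in 4 (OCLN, TJP1, DSG2 and DSC2). Of all windows, which unlike these include alternative starts of a gene, 17.5% held one. GC boxes occurred in the gene-start windows of OCLN, CLDN1, TJP1, DSG2 and DSC2, and in 42.6% of all windows. A cAMP element core occurred in that of DSG2 alone, and in 21.2% of all windows. No gene-start window of a member held a glucocorticoid element core, found in 12.4% of all windows. A match describes letters and not a bound site.

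The 13 arrays had been scaled by the authors to the same trimmed mean signal, and 33.3% to 40.0% of probe sets gave a signal under 20; the serum array of 20 min was the lowest of these, the others starting at 36.8%. Of 8 epithelial markers 5 were on the array under 1 symbol, among them the basal keratin KRT5 at 12.02 to 12.49 and the adhesion protein EPCAM at 8.37 to 9.24. Their summed level was 13.76 to 13.85 with EGF, 13.79 to 13.96 with serum and 13.94 unstimulated. In the late arrays these 5 markers had a median EGF-minus-serum difference of -0.27, and 0 of 5 passed limma's adjusted threshold. They did not all go the same way. The largest difference was that of EPCAM, at -0.454. KRT18 was higher with EGF, at 11.619, 11.755 and 11.92 in late EGF arrays and 11.36, 11.435 and 11.475 in late serum arrays. An unadjusted p under 0.05 was reached by 4 of 5 and by 18.89% of all tested genes. The part of these 5 markers in the differences below was not tested. Of 6 fibroblast markers, LUM was between 2.63 and 3.46 and DCN between 7.16 and 8.69, and their summed level was 7.67 to 8.68 with EGF, 8.10 to 9.005 with serum and 8.54 unstimulated. The 3 of these that were tested had a median late-minus-early difference of -0.59, with DCN at -0.65 (adjusted p = 0.051). Among 3 leukocyte markers PTPRC stayed at or under 4.21, while CD14, between 6.59 and 8.20, fell by 0.79 in late against early arrays over both stimuli (limma adjusted p = 0.022) and by 1.05 with serum (adjusted p = 0.0406). The part of these markers in the results was not tested. The 3 endothelial markers were between 2.85 and 5.15 on every array. In RNA from a whole culture, fewer cells with a transcript and less of it per cell cannot be told apart.

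In the late arrays 7 of 10 junction transcripts, on their brightest probe sets, were lower with EGF than with serum at all 3 times, as were 19.7% of all tested genes. OCLN and DSG3 passed the test of this difference, 2 of 10 members where 0.75% of all tested genes were called. The late arrays were set apart after the values had been seen, and the members were chosen with earlier results of these data known. The members' counts were not tested against the shares of all genes. The DSG3 call was lost whichever 1 of the 12 arrays was left out (limma adjusted p = 0.069 to 0.18). The OCLN call was lost without either array of 40, 120, 240 or 480 min (0.0803 to 0.13). Time was a block, so leaving out 1 array also took its partner of the same time out of this contrast. OCLN averaged 5.95 ± 0.39 in late EGF arrays and 7.56 ± 0.44 in late serum arrays (SD, n = 3 each), a 3.05-fold difference. DSG3 averaged 10.01 ± 0.39 in late EGF arrays and 11.04 ± 0.23 in late serum arrays (SD, n = 3 each), a 2.05-fold difference. Within the serum time course 7 of 10 members had late-minus-early estimates above 0, as did 50.82% of all tested genes. On the brightest probe sets all late serum arrays were above the early ones in OCLN, CDH1, TJP1, CDH3 and PKP2. In DSG2 and DSC2 all were below them. On the dimmer probe sets of PKP2 and DSC2 the late and early serum arrays overlapped. Late and early serum arrays did not overlap, in either direction, in 26.0% of all tested genes. Of the 10 members OCLN alone passed the test, at 2.99-fold higher in late arrays, and 1.33% of all tested genes were called. Its call was lost without the serum array of 20, 40, 60 or 240 min (limma adjusted p = 0.0681 to 0.0902). No member passed between the phases of the EGF time course. On the brightest probe sets DSG2, DSC2 and DSC3 had late differences between -0.25 and 0.12, none of them past the threshold. The dimmer DSC3 probe set gave -0.67. The values behind these statements follow by junction type.

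**Figure D1:**
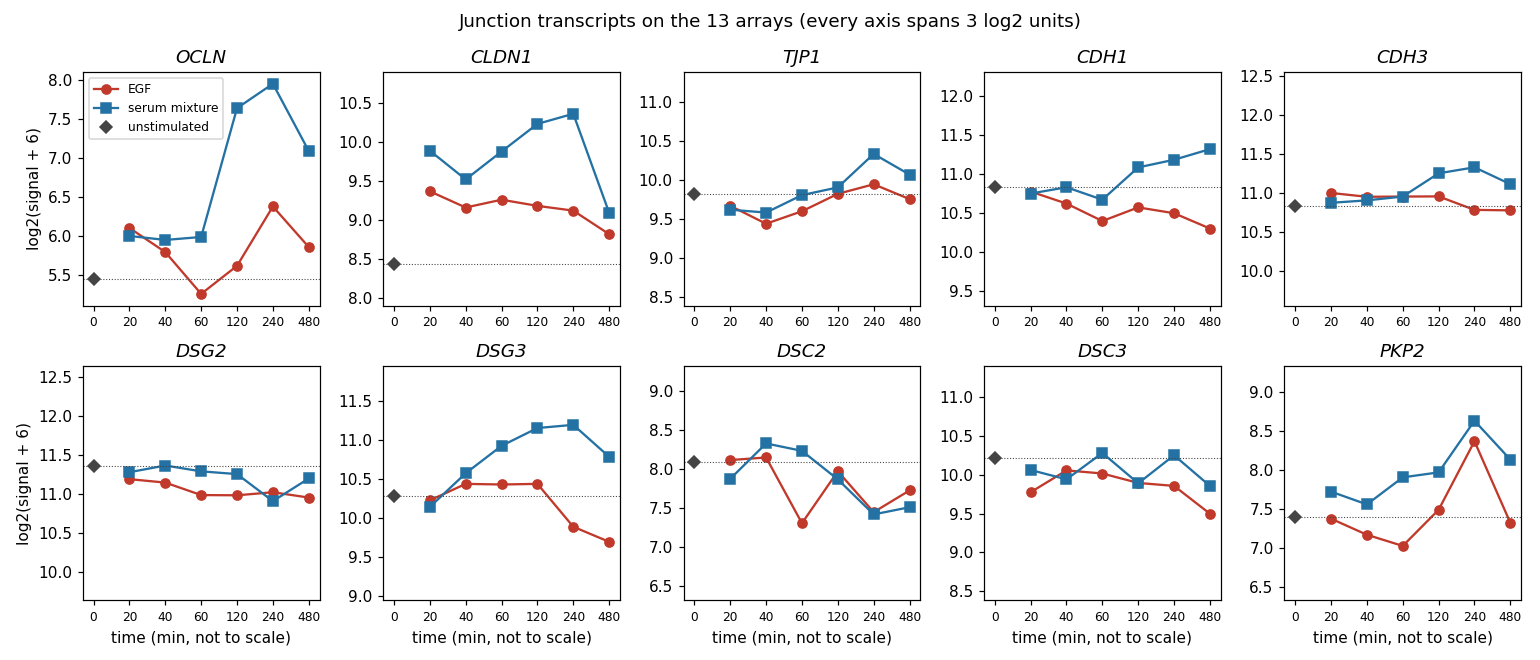
Level of each of the 10 junction transcripts, as log2(signal + 6), against time after stimulation in min (not to scale), with 1 point per array, EGF as red circles, serum as blue squares and the unstimulated array as a diamond and a dotted line. OCLN stood between 7.09 and 7.95 in the 3 late serum arrays and at or under 6.38 in all the others, while the 2 time courses of DSG2 lay between 10.91 and 11.37.

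OCLN was 6.10, 5.79, 5.26, 5.62, 6.38 and 5.86 at 20, 40, 60, 120, 240 and 480 min with EGF. With serum it was 5.999, 5.95 and 5.99 in the early arrays and 7.64, 7.95 and 7.09 in the late ones, and the unstimulated array gave 5.45. The late serum arrays therefore stood apart from the other 10 arrays, and the step lay between 60 and 120 min. The EGF values lay between 5.26 and 6.38 with no such step. On the deposited linear scale the signals were 43.1, 76.4 and 50.6 in late EGF arrays against 191.2, 239.0 and 126.4 in late serum arrays. OCLN is a dim transcript in these cells, its early signals lying between 32.1 and 64.2.

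CLDN1 was 9.36, 9.16, 9.26, 9.18, 9.12 and 8.81 over the 6 EGF times, and 9.89, 9.52, 9.87, 10.23, 10.36 and 9.09 over the 6 serum times. The unstimulated array, at 8.43, was the lowest of the 13. CLDN1 was thus higher in every stimulated array than in the unstimulated one, and lower with EGF than with serum at each of the 6 times. The differences were -0.52, -0.36, -0.62, -1.05, -1.24 and -0.28 from 20 to 480 min. Early EGF and early serum arrays did not overlap, whereas the late ones did because of the serum array of 480 min. TJP1, the scaffold protein, was 9.66, 9.43, 9.59, 9.82, 9.94 and 9.75 with EGF, 9.61, 9.58, 9.80, 9.90, 10.33 and 10.06 with serum, and 9.81 unstimulated. On this probe set TJP1 was the 1 member whose late and early arrays did not overlap in both time courses. A gap was found in 20.5% of all tested genes with EGF and in 26.0% with serum, and the share with both was not computed. On the dimmer TJP1 probe set the late EGF values of 6.638, 6.836 and 6.929 overlapped the early ones of 6.688, 6.679 and 7.174. With serum its late and early values did not overlap.

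CDH1 was 10.77, 10.62, 10.40, 10.57, 10.50 and 10.30 over the EGF times, and 10.75, 10.83, 10.67, 11.08, 11.18 and 11.32 over the serum times. Against 10.83 in the unstimulated array, all 3 late EGF arrays were lower and all 3 late serum arrays higher. On this brighter CDH1 probe set EGF minus serum went from 0.03 at 20 min to -0.21, -0.27, -0.51, -0.69 and -1.02 at 480 min, lower at each successive time. The dimmer CDH1 probe set did not show this order. It gave 7.976 with EGF against 7.865 with serum at 40 min, 7.638 against 8.534 at 240 min and 7.454 against 8.285 at 480 min. CDH3, the neighbour of CDH1, was 11, 10.95, 10.95, 10.96, 10.78 and 10.78 with EGF, 10.87, 10.91, 10.95, 11.25, 11.33 and 11.11 with serum, and 10.83 unstimulated. For both cadherins the late EGF and late serum arrays did not overlap. The CDH3 difference was smaller, -0.30, -0.55 and -0.34 at 120, 240 and 480 min, and its early values differed by at most 0.13.

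DSG3 was 10.22, 10.44, 10.43, 10.44, 9.89 and 9.69 over the EGF times, and 10.14, 10.57, 10.92, 11.15, 11.19 and 10.78 over the serum times, against 10.29 unstimulated. The late EGF and late serum arrays did not overlap, and the 2 lowest of all 13 values were EGF at 240 and 480 min. With serum, DSG3 was above the unstimulated array from 40 min on. DSG2 was 11.19, 11.15, 10.99, 10.98, 11.02 and 10.95 with EGF, 11.28, 11.37, 11.29, 11.26, 10.91 and 11.20 with serum, and 11.36 unstimulated. Its 13 values lay between 10.91 and 11.37, and late EGF and late serum arrays overlapped. DSG3 and DSG2, side by side on chromosome 18, thus showed a late EGF-minus-serum difference of -1.04 (SE 0.16) and of -0.13 (SE 0.12).

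DSC2 was 8.11, 8.15, 7.30, 7.97, 7.45 and 7.72 with EGF, 7.87, 8.33, 8.23, 7.87, 7.42 and 7.51 with serum, and 8.09 unstimulated. On this brighter DSC2 probe set every late serum value was below every early one, the opposite order to OCLN. The nearest were 7.865 at 120 min and 7.872 at 20 min. On the dimmer DSC2 probe set the late serum values of 6.949, 7.393 and 5.697 overlapped the early ones of 7.103, 7.15 and 6.995. DSC3 was 9.77, 10.05, 10.01, 9.89, 9.85 and 9.50 with EGF, 10.06, 9.94, 10.28, 9.89, 10.25 and 9.85 with serum, and 10.21 unstimulated. On the brighter probe sets EGF and serum arrays overlapped for both desmocollins in both phases, and EGF at 480 min was the lowest DSC3 array. On the dimmer DSC3 probe set the late arrays did not overlap. They were at 9.325, 9.397 and 8.952 with EGF and at 10.151, 9.875 and 9.651 with serum. PKP2 was 7.38, 7.17, 7.03, 7.49, 8.37 and 7.33 with EGF, 7.73, 7.56, 7.91, 7.97, 8.64 and 8.14 with serum, and 7.40 unstimulated. On this brighter probe set PKP2 peaked at 240 min in both time courses and was lower with EGF at all 6 times. The dimmer PKP2 probe set did not show this. Its lowest EGF value was 4.706 at 240 min, and its mean EGF-minus-serum difference over the 6 times was 0.289.

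The first comparison asked which junction transcripts differed between the late and the early arrays. With serum, 1 of 10 members passed, OCLN, which rose by 1.58 (SE 0.27, adjusted p = 0.0252), against 1.33% of all tested genes called. In all, 6 members had an unadjusted p under 0.05, as did 20.19% of all tested genes. The next members were CDH1 at 0.45 (SE 0.12, adjusted p = 0.0888), TJP1 at 0.43 (SE 0.13, adjusted p = 0.0988) and CDH3 at 0.32 (SE 0.10, adjusted p = 0.102). Their late and early serum arrays did not overlap, as was true, on the brightest probe sets, of 7 members and of 26.0% of all tested genes. DSG3 differed by 0.50 (adjusted p = 0.248), PKP2 by 0.52 (adjusted p = 0.293) and DSC2 by -0.55 (adjusted p = 0.226). The median over the members was 0.38, against 0.01 over all tested genes. The OCLN call ended when the serum array of 20 min (adjusted p = 0.0691), 40 min (0.0902), 60 min (0.0681) or 240 min (0.0863) was left out, and when dim genes were kept (0.0675).

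With EGF, limma called 0 of 10 members between late and early arrays, and 0 also had an unadjusted p under 0.05; 0.246% of all tested genes were called. OCLN differed by 0.23 (SE 0.27, adjusted p = 0.716), DSG3 by -0.36 (SE 0.23, adjusted p = 0.481), PKP2 by 0.54 (SE 0.26, adjusted p = 0.366) and TJP1 by 0.27 (SE 0.13, adjusted p = 0.358). The median over the members was -0.14, against 0.02 over all tested genes. Over both stimuli together, 1 of 10 members passed, again OCLN, which rose by 0.91 (SE 0.19, adjusted p = 0.0298), and 3.47% of all tested genes were called. TJP1 followed with 0.35 (SE 0.09, adjusted p = 0.0559) and PKP2 with 0.53 (SE 0.18, adjusted p = 0.114). The pooled OCLN call ended without any 1 of the EGF arrays of 40, 240 or 480 min (adjusted p = 0.0659, 0.062 and 0.0634) or the serum arrays of 20, 40, 60 or 240 min (0.0543, 0.0735, 0.0575 and 0.0677), with dim genes kept (0.0732), and with time as a factor (0.115).

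**Figure D2:**
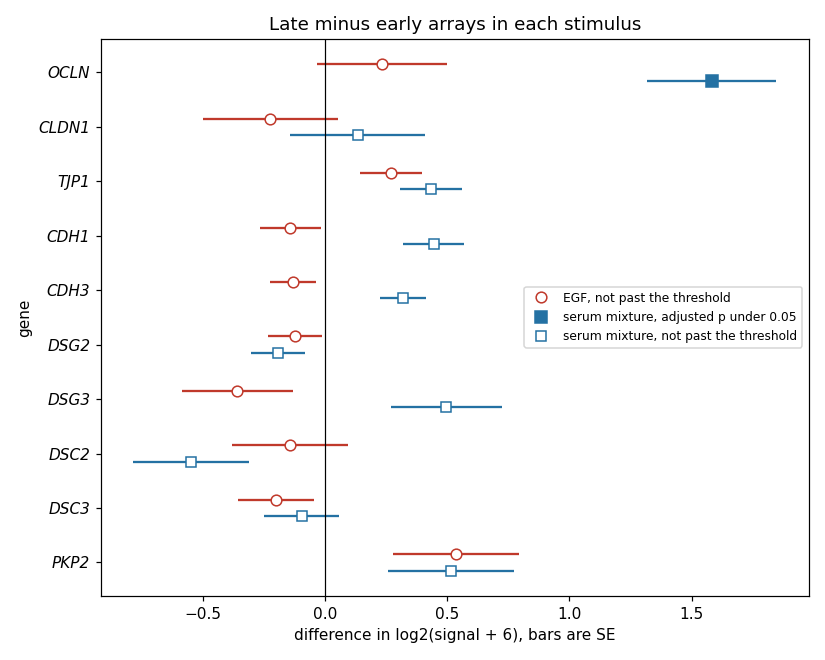
Late minus early difference of each junction transcript in log2(signal + 6), for EGF (red circles) and serum (blue squares), with bars of 1 SE; filled symbols passed an adjusted p of 0.05. OCLN with serum, at 1.58, is the only filled symbol, and CLDN1, CDH1, CDH3 and DSG3 lie below 0 with EGF and above 0 with serum.

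The difference between these changes was tested as the interaction of stimulus and phase, late minus early with EGF less late minus early with serum. It called 0 of 10 members with limma, while 0.0259% of all tested genes were called. In all, 4 members had an unadjusted p under 0.05, as did 11.11% of all tested genes. The estimates were -1.35 for OCLN (SE 0.29, adjusted p = 0.245), -0.86 for DSG3 (SE 0.22, adjusted p = 0.315), -0.59 for CDH1 (SE 0.18, adjusted p = 0.37) and -0.45 for CDH3 (SE 0.14, adjusted p = 0.372). For PKP2 the estimate was 0.02 (SE 0.22). With 4 residual degrees of freedom, the late-minus-early change was therefore not shown to differ between the 2 stimuli for any member.

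The next comparison set EGF against serum at the same times. Over all 6 pairs limma called 0 of 10 members, and 0.129% of all tested genes were called. An unadjusted p under 0.05 was reached by 5 members and by 20.55% of all tested genes. On the brightest probe sets every member's estimate was negative, that is lower with EGF, whereas 51.35% of all tested genes were above 0. On the next brightest probe set PKP2 was at 0.289 and DSC2 at 0.079, while TJP1, CDH1 and DSC3 stayed below 0. Without either array of 60 min DSC2 was at 0.082. The estimates nearest to the threshold were those of PKP2 (-0.53, SE 0.11, adjusted p = 0.0686) and CLDN1 (-0.68, SE 0.14, adjusted p = 0.0743). On the brightest probe sets PKP2 and CLDN1 were the 2 members lower with EGF in 6 of 6 pairs, as were 6.87% of all tested genes. The dimmer PKP2 probe set did not show this, with 5.121 for EGF and 5.009 for serum at 20 min. OCLN was at -0.94 (SE 0.28, adjusted p = 0.135), DSG3 at -0.61 (SE 0.19, adjusted p = 0.143) and CDH1 at -0.45 (SE 0.14, adjusted p = 0.146).

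**Figure D3:**
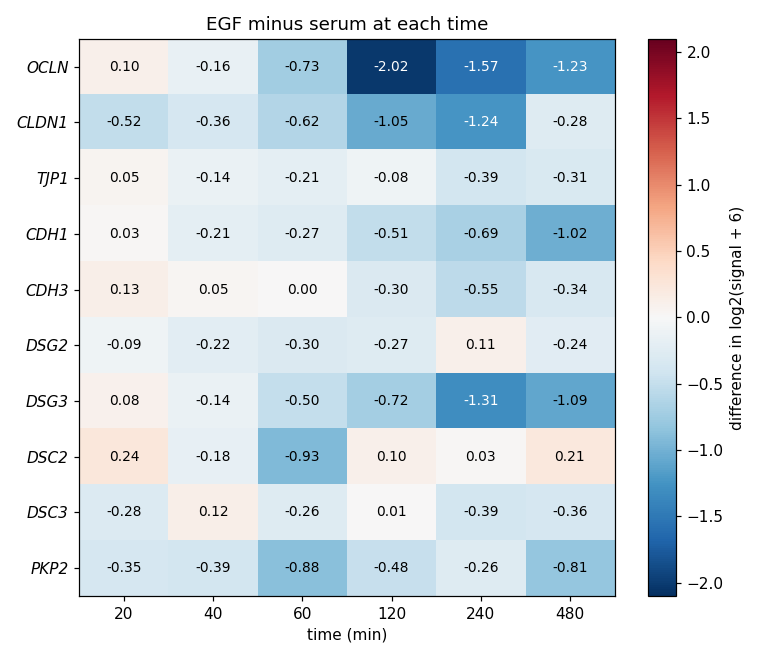
EGF minus serum at each of the 6 times for each junction transcript, in log2(signal + 6), 1 pair of arrays per cell, blue where EGF was lower. The darkest cells are those of OCLN at 120 and 240 min (-2.02 and -1.57), followed by DSG3 and CLDN1 at 240 min (-1.31 and -1.24) and OCLN at 480 min (-1.23).

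In the late arrays alone, a division added after the values had been seen, 2 of 10 members were lower with EGF than with serum past the threshold, and 0.75% of all tested genes were called in either direction. OCLN was lower by 3.05-fold (log2 -1.61, SE 0.20, adjusted p = 0.0269), with pair differences of -2.02, -1.57 and -1.23 at 120, 240 and 480 min. DSG3 was lower by 2.05-fold (log2 -1.04, SE 0.16, adjusted p = 0.0492), with pair differences of -0.72, -1.31 and -1.09. CDH1 (-0.74, SE 0.13, adjusted p = 0.0685), CLDN1 (-0.86, SE 0.19, adjusted p = 0.0918), CDH3 (-0.39, SE 0.10, adjusted p = 0.121) and PKP2 (-0.52, SE 0.16, adjusted p = 0.158) were not past the threshold. TJP1 was at -0.26, DSC3 at -0.25, DSG2 at -0.13 and DSC2 at 0.12, with adjusted p from 0.264 to 0.794. In all, 6 members had an unadjusted p under 0.05, as did 18.89% of all tested genes. On the brightest probe sets all 3 late pairs were lower with EGF in 7 members, as in 19.7% of all tested genes. In 4 (OCLN, CDH1, CDH3 and DSG3) all late EGF arrays were below all late serum arrays, as in 10.8%. This was also so for DSC3 on its dimmer probe set. The late serum arrays enter both this contrast and the serum late-minus-early one. The OCLN call ended without either array of 40, 120, 240 or 480 min (limma adjusted p = 0.0803, 0.102, 0.13 and 0.0967) and with dim genes kept (0.0961). The DSG3 call ended whichever 1 of the 12 arrays was left out (adjusted p = 0.069 to 0.18). With time as a block, leaving out the EGF or the serum array of a time gave the same values.

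In the early arrays limma called 0 of 10 members and 0% of all tested genes. An unadjusted p under 0.05 was reached by 2 members, near the 14.39% of all tested genes that did so. PKP2 was at -0.54 (SE 0.16, adjusted p = 0.234) and CLDN1 at -0.50 (SE 0.19, adjusted p = 0.312), against -0.52 and -0.86 in the late arrays. OCLN was at -0.26 (SE 0.20) and DSG3 at -0.18 (SE 0.16), against -1.61 and -1.04 in the late arrays. On the brightest probe sets early EGF and early serum arrays did not overlap in 3 members, CLDN1, DSG2 and PKP2, as in 21.6% of all tested genes. On the dimmer PKP2 probe set they overlapped.

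**Figure D4:**
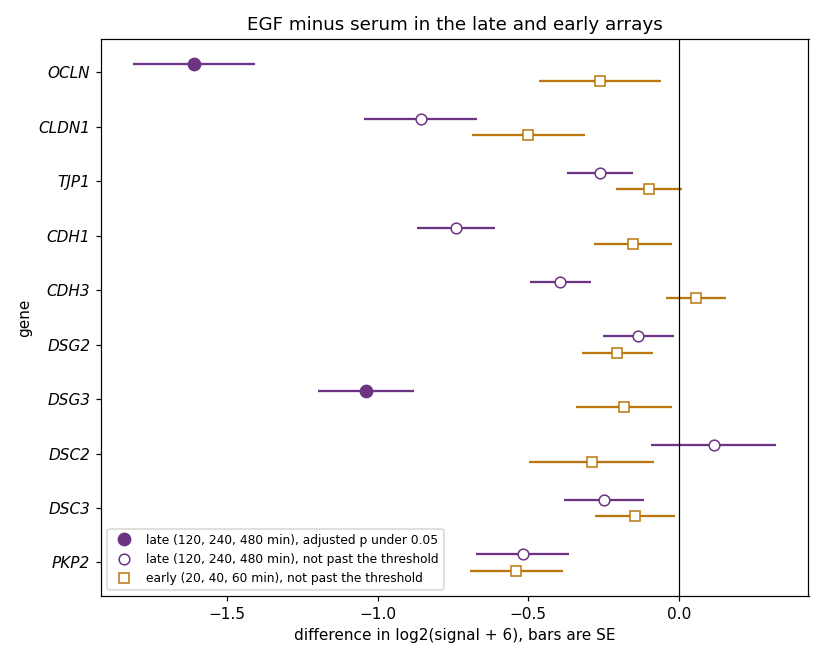
EGF minus serum difference of each junction transcript in log2(signal + 6) in the late arrays (purple circles) and the early arrays (ochre squares), with bars of 1 SE; filled symbols passed an adjusted p of 0.05. The late values of OCLN (-1.61) and DSG3 (-1.04) are filled, and the early values of all members lie between -0.54 and 0.06.

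Against the unstimulated array, the mean of the 2 stimuli was tested at 60 and at 480 min. At 60 min limma called 0 of 10 members and 0.0776% of all tested genes, and 1 member had an unadjusted p under 0.05, near the 7.44% of all tested genes. That member was CLDN1, at 1.13 (SE 0.30, adjusted p = 0.389), being 0.82 with EGF and 1.44 with serum. At 480 min limma called 0 of 10 members and 0% of all tested genes, and 1 member had an unadjusted p under 0.05, near the 11.72% of all tested genes. That member was DSC3, at -0.53 (SE 0.20, adjusted p = 0.37), being -0.71 with EGF and -0.36 with serum. OCLN at 480 min was at 1.02 (SE 0.58, adjusted p = 0.539), from 0.41 with EGF and 1.64 with serum. These comparisons rest on the lone unstimulated array.

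TJP1, CDH1, DSC2, DSC3 and PKP2 had 2 probe sets each, whose values could be set side by side. For CDH1 the dimmer probe set differed by -0.74 between late EGF and late serum arrays, as the brighter one did, and by 0.45 between late and early serum arrays for both. TJP1 was also lower with EGF in the late arrays on its dimmer probe set (-0.44 against -0.26), and DSC3 more so (-0.67 against -0.25). The 2 PKP2 probe sets went against each other: the dimmer one gave 0.15 between late EGF and late serum arrays where the brighter gave -0.52, and their correlation over the 13 arrays was -0.74. Signals of the dimmer PKP2 probe set lay between 18.6 and 54.1, against 127.1 to 393.8 for the brighter one, on which the PKP2 values above rest. The DSC2 probe sets correlated at 0.37 and the dimmer one had its lowest value, 5.70, on the serum array of 480 min. OCLN, CLDN1, CDH3, DSG2 and DSG3 had 1 probe set each, so no such check was had for the largest differences.

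**Figure D5:**
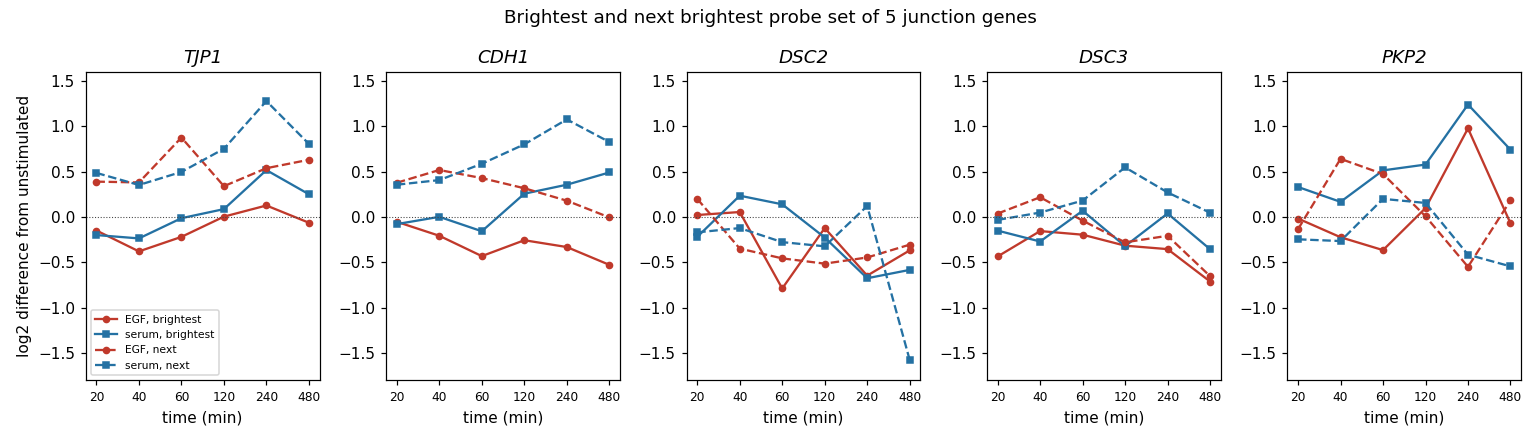
Difference from the unstimulated array in log2(signal + 6) against time in min for the 5 junction genes with a second probe set, the brightest drawn solid and the next drawn dashed, EGF red and serum blue. Both CDH1 probe sets have EGF below serum in the late arrays, whereas the PKP2 curves diverge, the brighter peaking at 240 min where the dimmer falls.

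Over the 12 stimulated arrays, which share the times and the 2 stimuli, the 45 pairs of members had a median Pearson correlation of 0.43, and 36 pairs were above 0. These values were not set against pairs of all tested genes, whose correlations were not computed. The closest pairs were CDH3 with DSG3 at 0.88, TJP1 with PKP2 at 0.87 and OCLN with CDH1 at 0.82. The PKP2 value rests on its brighter probe set, with which the dimmer one correlated at -0.74 over the 13 arrays. The neighbours CDH1 and CDH3 correlated at 0.81, but the neighbours DSG2 and DSG3 at 0.24. The lowest value was that of TJP1 with DSC2, -0.55. Among all tested genes, those most like OCLN over the 13 arrays were PANX1, a pannexin channel protein (r = 0.94), the death receptor TNFRSF21 (r = 0.93) and ARHGEF3 (r = 0.92). The gene most like DSG3 was the sulfate transporter SLC26A2 (r = 0.92), which differed by -1.92 between late EGF and late serum arrays (adjusted p = 0.0221). CDH1 was closest to TCEAL4 (r = 0.94), CDH3 to the collagen prolyl hydroxylase P3H2 (r = 0.95), CLDN1 to the membrane protein TM4SF1 (r = 0.87) and TJP1 to the adaptor YWHAH (r = 0.93). For PKP2 it was CHSY1 (r = 0.94), for DSG2 ANKRA2 (r = 0.91), for DSC2 the kinase TBK1 (r = 0.85) and for DSC3 the receptor NOTCH2 (r = 0.83).

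Other junction genes were described by list. In the late EGF-minus-serum comparison 18.89% of all tested genes had an unadjusted p under 0.05 and 0.75% were called. The counts of the lists were not tested against these shares. Of 6 tested genes of the remaining desmosome list, limma called 0 in the late EGF-minus-serum comparison, 4 having an unadjusted p under 0.05; the median was -0.42 and the largest difference that of periplakin, PPL, at -0.84 (adjusted p = 0.147). Among 9 tested adherens junction genes 0 were called, 3 having an unadjusted p under 0.05, with a median of -0.19 and the largest difference in NECTIN2 at -0.57 (adjusted p = 0.198). Of 7 other tight junction genes 0 were called and 2 had an unadjusted p under 0.05, with a median of -0.08 and CLDN7 at -0.60 (adjusted p = 0.161). The 8 polarity genes had 0 called, 0 with an unadjusted p under 0.05, and a median of 0.08. The 3 gap junction genes had 0 called and 1 with an unadjusted p under 0.05, PANX1 at -0.47 (adjusted p = 0.137). Among 6 other cadherins 0 were called and 1 had an unadjusted p under 0.05, FAT2, at 0.68 (adjusted p = 0.103), in the opposite direction to 9 of the 10 members. The 7 tested junction regulators had 0 called and 1 with an unadjusted p under 0.05, their largest difference being that of the epithelial factor ELF3 at -0.82 (adjusted p = 0.237).

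Between late and early arrays some of these genes passed where most members did not. Of all tested genes 1.33% were called with serum and 3.47% over both stimuli. The lists were not tested against these shares. CXADR, an adhesion protein at tight junctions, fell by 1.01 with serum (SE 0.16, adjusted p = 0.0245), the opposite direction to OCLN. The atypical cadherin FAT2 fell by 0.80 with serum (SE 0.17, adjusted p = 0.0479). Over both stimuli the protocadherin PCDH7 rose by 0.82 (SE 0.16, adjusted p = 0.0261), PCDH9 fell by 0.58 (SE 0.14, adjusted p = 0.048) and ELF3 fell by 1.07 (SE 0.24, adjusted p = 0.0393). No tested gene of the polarity, adherens junction, desmosome or gap junction lists was called between late and early serum arrays by limma. An unadjusted p under 0.05 was reached by 1 of 8, 2 of 9, 1 of 6 and 2 of 3 of them, and by 20.19% of all tested genes. Their medians were 0.03, 0.10, 0.09 and 0.32.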

How the data were processed

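Total RNA of MCF10A cells was measured on 13 Affymetrix arrays, 1 per stimulus and time. The deposited intensity values are MAS5 signals on a linear scale, per the submitters' processing notes; the MAS5 version is not given in the sources used here. As the authors scaled them, the arrays have a mean of 150.04 to 150.05 once 2% at each end is trimmed. The number of arrays limits the precision.

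Signals were transformed as log2(signal + 6) and quantile normalized (limma 3.58.1, R 4.3.3). Among 22277 probe sets were 62 controls; 19064 of the others carried 1 gene symbol in the platform annotation, 1043 several and 2108 none, and 19052 were matched by Entrez number, with 0 renamed. The brightest probe set stood for each gene. Genes were tested if their mean was at or above the 40th percentile over probe sets, 4.68, which kept 7733.

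Models were fitted to all tested genes with lmFit and eBayes, with Benjamini-Hochberg adjustment over them and a threshold of 0.05. Late minus early used 4 means of stimulus and phase (8 residual degrees of freedom). EGF minus serum used time as a block (5), and the interaction and the late and early divisions added stimulus by phase (4). The comparisons with the unstimulated array used time and stimulus (5). The procedure was tested on simulated data. Members and gene lists were chosen with earlier results of these data known. Named were all members, the genes of each list past the threshold or otherwise the 1 with the largest difference, and the genes most like a member by Pearson correlation (3 for OCLN, 1 for each other).

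Alternatives were no offset or an offset of 24, no quantile normalization, no filter or one at the 60th percentile, the mean or the next brightest probe set, trended and robust variances, other codings of time, no time block, and arrays left out. Probe sets with several symbols or none were not used here. The software for tables and plots was pandas 2.3.3 and numpy 2.4.6 under Python 3.11.15, with matplotlib 3.10.9.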

Additional observations from a re-analysis of the deposited data

Results flagged for a closer look

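CDH1 lay on opposite sides of the unstimulated array with the 2 stimuli. All 3 late EGF arrays were below it (mean difference -0.372), and all 3 late serum arrays were above it (mean difference 0.367). This difference in direction from the lone unstimulated array was not tested; late EGF minus late serum gave -0.74 (limma adjusted p = 0.0685). On the dimmer CDH1 probe set the late EGF arrays were at 7.78, 7.64 and 7.45 and the late serum arrays at 8.26, 8.53 and 8.29, against 7.46 unstimulated.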

How the results depend on the processing

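Each member's value in each comparison was recomputed under every alternative that could be run, 1885 in all for 90 values; 41 lost a call, 25 gained one and 26 changed sign by more than the standard error. The comparisons with the unstimulated array have no value without it.

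Late minus early called 1 member higher. That count was 2 with an offset of 24, with the stricter filter, with trended and robust variances and without the 120 min arrays, and 0 with no filter, without both arrays of 20 min and with time as a factor; with 1 array left out it ran from 0 to 2. The added member was TJP1 in each case of 2. With serum the count of 1 was 0 with no filter and without both arrays of 20 min and 4 with trended and robust variances, where TJP1, CDH1 and CDH3 joined OCLN; with 1 array left out it ran from 0 to 1. EGF minus serum called 0 members, but 2, CLDN1 and PKP2, with an offset of 24, the stricter filter or trended and robust variances. The interaction called 0, but 4 with trended and robust variances: OCLN (adjusted p = 0.0446), CDH1 (0.0425), CDH3 (0.0367) and DSG3 (0.0325). The 2 members called lower with EGF in the late arrays were 1 with no offset, with the mean of probe sets and without both arrays of 20 min, 0 with no filter, 4 with the stricter filter and 6 with trended and robust variances; with 1 array left out the count ran from 0 to 1.

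Signs turned mostly with the probe set. On its next brightest probe set PKP2 was at -0.306 late minus early, -0.447 with EGF, -0.164 with serum, 0.289 for EGF minus serum, 0.148 in its late and 0.431 in its early part, -0.283 in the interaction and -0.181 at 480 min minus unstimulated. TJP1 was at -0.046 late minus early with EGF and 0.104 for early EGF minus serum on its next probe set, and at 60 min minus unstimulated 0.686 on it and 0.285 on the mean of both. DSC3 late minus early with serum was 0.222 on the next probe set and 0.064 on the mean, and early EGF minus serum was 0.006. CDH1 minus unstimulated was 0.507 (next) and 0.106 (mean) at 60 min and 0.411 (next) at 480 min. DSC2 EGF minus serum was 0.079 (next). With 1 array left out, CLDN1 late minus early ran from -0.161 to 0.156, DSC2 EGF minus serum from -0.152 to 0.082, DSC2 at 60 min minus unstimulated from -0.828 to 0.182, early DSC2 EGF minus serum from -0.554 to 0.03 and CDH1 at 480 min minus unstimulated from -0.362 to 0.324. The causes were not tested.

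The number of all tested genes called moved more than the members' values: 268 for late minus early (56 to 642 over the alternatives), 19 with EGF (0 to 69), 103 with serum (9 to 413), 10 for EGF minus serum (1 to 429), 58 in its late part (0 to 555), 0 in its early part (0 to 178), 2 for the interaction (0 to 70), 6 at 60 min (1 to 29) and 0 at 480 min (0 to 46).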
